A study of Mus musculus with 9 samples.

Results

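The transcripts of 8 secreted signalling proteins, Il2, Lif, Xcl1, Ccl3, Ccl4, Cxcl10, Il16 and Tgfb1, were followed through 9 bulk RNA sequencing libraries of mouse CD4+ T cells. They were found by gene symbol among 25160 genes, and for each gene the RefSeq transcript with the highest total count was used. Naive CD4+ T cells had been sorted from the spleens of C57BL/6 mice and cultured on plate-bound antibody to CD3e at 1 µg/ml, which engages the T cell receptor complex, in all 3 groups. Wild-type cells received 19 µg/ml of an antibody to CD40L, the T cell surface ligand of CD40 (3 libraries). Cells labelled KO, from mice described as lacking CD40L in T cells, received 19 µg/ml of isotype control antibody (3 libraries), and wild-type cells on the same isotype antibody were the control (3 libraries). The genotype label of the KO cells is cre. The promoter that drives Cre, the deleted part of the gene, the age of the mice and the duration of the culture were not given in the sources used here. The labels do not say whether replicates are separate mice or cultures, so p-values here measure spread among libraries that may be only technical.

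A T cell whose receptor is engaged switches on the genes of secreted cytokines and chemokines, and calcium-driven NFAT factors, AP-1 and NF-kappaB are the textbook route to them. IL-2 is the autocrine growth factor of T cells and acts through a receptor of alpha, beta and gamma chains to STAT5. The chemokines XCL1, CCL3 and CCL4 attract other leukocytes, whereas interleukin-16 and TGF-beta 1 are made as precursors that are processed after translation, so that their transcripts alone do not give the amount of active protein.

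Total counts ran between 5316482 and 15565711 per library, and anti-CD40L replicate 3 was the shallowest, with a count for 11673 genes against 14290 to 17428 in the other libraries. It also lay apart on the first principal component, at 86.96, where the other 8 libraries lay between -19.1 and 10.22. Where leaving it out ended a call of the 8 transcripts, the value without it is given. The same was done where a printed log2 fold change or fold of count ratios moved by over 1.5 times. Adjusted p-values moved too, and those that did not end a call are not all given. Cd40lg, the gene of CD40L, had 145, 136 and 150 CPM (counts scaled to library size) in KO-labelled libraries, against 142, 154 and 189 CPM in wild-type isotype libraries. It did not pass the test (log2 fold change -0.17, edgeR quasi-likelihood, Benjamini-Hochberg adjusted p = 0.935). Because the deleted part is not known, this level does not check the label.

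The stretches of 250 bases before the transcription start are shown for the 4 genes that passed a test below and have 1 annotated promoter with matches, and for Cxcl10, whose promoter held the widest set of the motifs searched. Sequences are from RefSeq, assembly GRCm38.p6, and a promoter was found for 7 of the 8 genes. They run 5′ to 3′ on the strand of the gene. Capitals mark motif matches. The core bound by NFAT is GGAAA. The AP-1 motif is TGANTCA. The interferon response element is a pair of GAAA with any 2 bases between them. These and the kappaB consensus were searched on both strands, and the TATA box TATAAA on the strand of the gene only.
Il2 promoter, chr3:37125955-37126204, minus strand: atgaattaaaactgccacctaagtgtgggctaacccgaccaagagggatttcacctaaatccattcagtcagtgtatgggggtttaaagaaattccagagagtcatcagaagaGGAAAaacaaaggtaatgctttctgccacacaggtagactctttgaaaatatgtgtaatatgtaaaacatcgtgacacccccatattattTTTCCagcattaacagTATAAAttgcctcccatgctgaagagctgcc
Lif promoter, chr11:4257318-4257567, plus strand: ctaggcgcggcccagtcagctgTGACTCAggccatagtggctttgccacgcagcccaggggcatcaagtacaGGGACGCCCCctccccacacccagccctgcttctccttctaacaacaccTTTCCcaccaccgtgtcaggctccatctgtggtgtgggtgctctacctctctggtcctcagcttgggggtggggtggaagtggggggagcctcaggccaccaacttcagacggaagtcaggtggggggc
Xcl1 promoter, chr1:164935523-164935772, minus strand: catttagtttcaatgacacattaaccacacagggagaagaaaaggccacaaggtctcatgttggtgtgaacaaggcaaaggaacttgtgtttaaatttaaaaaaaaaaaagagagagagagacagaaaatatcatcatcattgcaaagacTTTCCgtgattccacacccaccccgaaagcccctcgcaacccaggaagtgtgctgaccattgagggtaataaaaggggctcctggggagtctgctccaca
Ccl3 promoter, chr11:83649379-83649628, minus strand: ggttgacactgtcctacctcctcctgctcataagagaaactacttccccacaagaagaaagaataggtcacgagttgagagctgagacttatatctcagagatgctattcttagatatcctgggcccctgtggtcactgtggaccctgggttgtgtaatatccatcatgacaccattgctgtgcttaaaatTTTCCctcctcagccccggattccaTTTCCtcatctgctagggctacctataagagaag
Cxcl10 promoter, chr5:92348890-92349139, minus strand: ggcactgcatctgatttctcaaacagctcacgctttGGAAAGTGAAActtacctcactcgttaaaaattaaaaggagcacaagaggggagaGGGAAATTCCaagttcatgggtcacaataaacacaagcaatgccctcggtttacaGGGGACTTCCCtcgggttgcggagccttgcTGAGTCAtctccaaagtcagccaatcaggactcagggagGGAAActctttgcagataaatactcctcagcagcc

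GGAAA is common, and 55.6% of 32851 promoters of the same length hold it. It was found 2 times before Il2, 1 time before Lif, 1 time before Xcl1 and 2 times before Ccl3. The Il2 promoter also held TATAAA, 31 bases before the start, which 7.6% of promoters hold. The Lif promoter held an AP-1 match (6.7% of promoters) and a kappaB match (7.3%). The Cxcl10 promoter held 3 GGAAA, 1 AP-1 and 3 kappaB matches, the last counted over both strands and partly overlapping, and 1 interferon response match (3.0% of promoters) that overlaps a GGAAA. The Tgfb1 promoter, not printed, held 1 kappaB match and no GGAAA. These are matches of letters in a fixed window and do not show binding.

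Levels between genes were compared as CPM per kilobase of transcript. Xcl1 was the most abundant of the 8 in every group, at 157 CPM per kilobase with anti-CD40L, 549 in KO-labelled libraries and 359 in wild-type isotype libraries. Tgfb1 came next, at 94.0, 107 and 103 CPM per kilobase in the same order of groups. Ccl4 and Il16 followed, with overlapping libraries in each group. Il2 stood at 17.1 CPM per kilobase with anti-CD40L, where its libraries overlapped those of Ccl3 at 6.73, but at 6.72 in KO-labelled libraries and 4.36 in wild-type isotype libraries, below every Ccl3 library of the same group. Lif and Cxcl10 were lowest. Their libraries overlapped in KO-labelled libraries and in wild-type isotype libraries, but not with anti-CD40L.

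**Figure D1:**
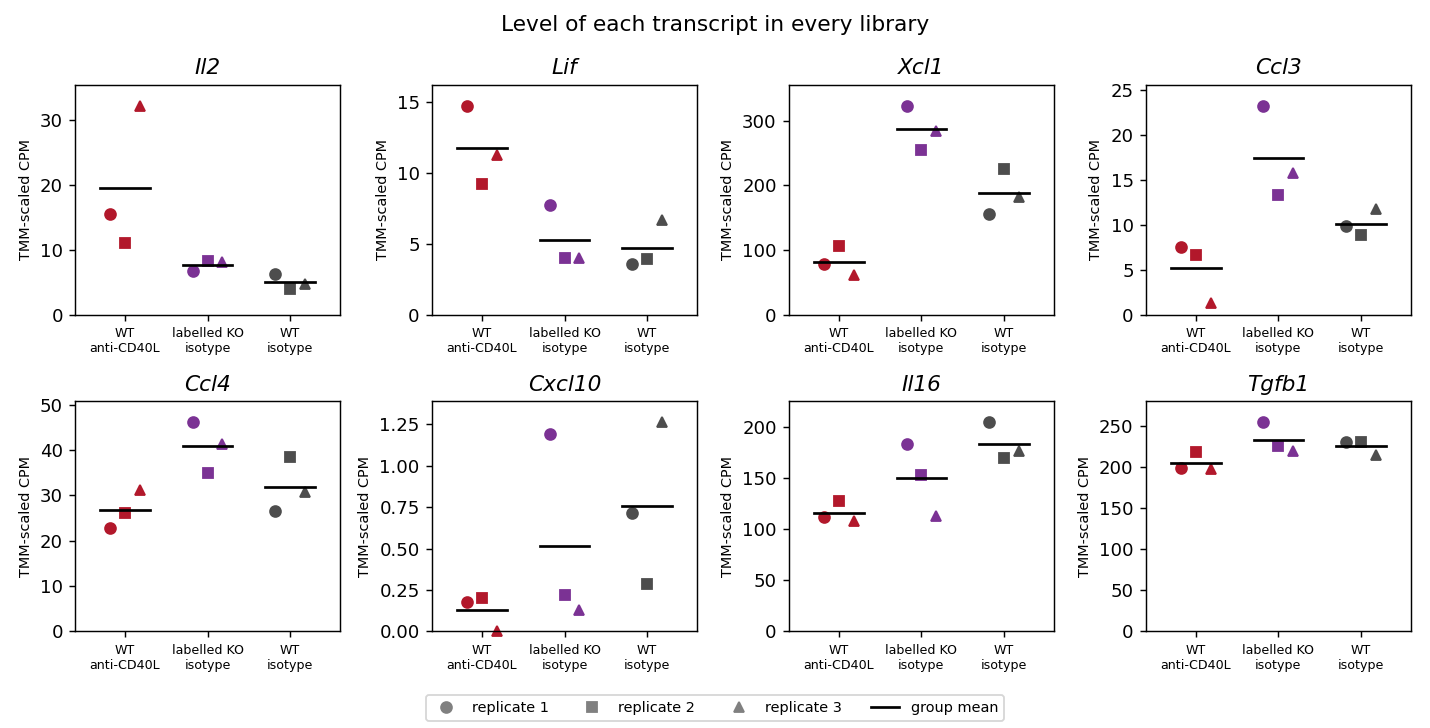
Level of each of the 8 transcripts in CPM over TMM-scaled library sizes (y axis, linear, a different range per gene) in the 3 groups (x axis), with 1 point per library and a line at the group mean. Il2 and Lif lie higher in all 3 anti-CD40L libraries than in any other library, and Xcl1 and Ccl3 lie lower.

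The growth and differentiation cytokines Il2 and Lif were higher with anti-CD40L than in either isotype group. Il2 (chr3:37120713-37125954, GRCm38, minus strand) had 15.4, 11.1 and 32.1 CPM with anti-CD40L, 6.72, 8.27 and 8.08 CPM in KO-labelled libraries, and 6.27, 3.99 and 4.70 CPM in wild-type isotype libraries. No anti-CD40L library overlapped another group, and the highest was replicate 3. Il2 rose 3.80-fold over wild-type isotype (log2 fold change 1.93, SE 0.35, edgeR quasi-likelihood, Benjamini-Hochberg adjusted p = 0.00398). Against KO-labelled libraries the rise was 2.47-fold (log2 1.30, SE 0.33, edgeR adjusted p = 0.0308). Without anti-CD40L replicate 3 the log2 fold change was 1.41 over wild-type isotype (edgeR adjusted p = 0.00397) and 0.79 over KO-labelled libraries (edgeR adjusted p = 0.0602), which ended the second call. That call was also lost without KO replicate 1, 2 or 3, with edgeR adjusted p of 0.102, 0.0969 and 0.0504. The 3 KO-labelled libraries lay above the 3 wild-type isotype libraries, but Il2 did not pass the test there (log2 fold change 0.63, SE 0.35, 95% interval -0.13 to 1.38, edgeR adjusted p = 0.895).

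Lif encodes a cytokine of the interleukin-6 family that signals through LIFR and gp130 (Il6st), and lies at chr11:4257568-4272514 on the plus strand. It had 14.7, 9.23 and 11.3 CPM with anti-CD40L, 7.69, 4.03 and 4.01 CPM in KO-labelled libraries, and 3.58, 3.90 and 6.65 CPM in wild-type isotype libraries. Each anti-CD40L library was above every isotype library, while the isotype groups overlapped. Lif rose 2.52-fold over wild-type isotype (log2 1.33, SE 0.33, edgeR quasi-likelihood, adjusted p = 0.0242) and 2.28-fold over KO-labelled libraries (log2 1.19, SE 0.32, adjusted p = 0.0436). The first call was lost without anti-CD40L replicate 1, wild-type isotype replicate 1 or wild-type isotype replicate 2, with edgeR adjusted p of 0.109, 0.102 and 0.101. The second passed in 8 of 16 alternative analyses. It was lost without anti-CD40L replicate 1 (0.154) or 3 (0.0558, at a log2 fold change of 1.24), KO replicate 2 (0.192) or 3 (0.102), or wild-type isotype replicate 1 (0.0522) or 2 (0.0588), all edgeR adjusted p.

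Xcl1 fell with anti-CD40L against both isotype groups, and Ccl3 and Ccl4 fell against KO-labelled libraries. Xcl1, lymphotactin, attracts the dendritic cells that carry XCR1, and lies at chr1:164931644-164935522 on the minus strand. It had 77.8, 106 and 61.9 CPM with anti-CD40L, 323, 255 and 283 CPM in KO-labelled libraries, and 156, 226 and 182 CPM in wild-type isotype libraries. The 3 groups did not overlap: every anti-CD40L library was lowest and every library labelled KO highest. Xcl1 fell 2.27-fold against wild-type isotype (log2 -1.18, SE 0.17, edgeR quasi-likelihood, Benjamini-Hochberg adjusted p = 0.0011) and 3.47-fold against KO-labelled libraries (log2 -1.80, SE 0.18, adjusted p = 7.28e-05). Both calls passed in all 16 alternatives. Between KO-labelled libraries and wild-type isotype, the log2 fold change of 0.61 (SE 0.17, 95% interval 0.25 to 0.97) had an unadjusted p of 0.00304 and an adjusted p of 0.540 in edgeR. It passed in 1 alternative, the analysis without a filter on low counts (adjusted p = 1.56e-06).

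Ccl3 and Ccl4 encode the inflammatory chemokines MIP-1alpha and MIP-1beta and are neighbours on chromosome 11 (chr11:83647843-83649378, minus strand, and chr11:83662584-83664683, plus strand, with the span of Ccl4 taken from GENCODE vM21). Ccl3 had 7.53, 6.59 and 1.34 CPM with anti-CD40L, 23.2, 13.2 and 15.8 CPM in KO-labelled libraries, and 9.86, 8.84 and 11.7 CPM in wild-type isotype libraries. Anti-CD40L libraries were below, and KO-labelled libraries above, all wild-type isotype libraries, and the lowest value rests on 7 counts in anti-CD40L replicate 3. Ccl3 fell 3.13-fold against KO-labelled libraries (log2 -1.65, SE 0.37, edgeR quasi-likelihood, adjusted p = 0.0169), and the log2 value without anti-CD40L replicate 3 was -1.28 (adjusted p = 0.00997). The call was lost without KO replicate 1 (edgeR adjusted p = 0.0750). Against wild-type isotype the log2 fold change of -0.87 (SE 0.38, 95% interval -1.70 to -0.05) did not pass (edgeR adjusted p = 0.165), and without anti-CD40L replicate 3 it was -0.50. It passed in the analysis without the filter on low counts (edgeR adjusted p = 0.0082). The KO-labelled libraries against wild-type isotype gave 0.77 (SE 0.35, edgeR adjusted p = 0.863).

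Ccl4 had 22.8, 26.2 and 31.1 CPM with anti-CD40L, 46.1, 35.0 and 41.4 CPM in KO-labelled libraries, and 26.5, 38.5 and 30.6 CPM in wild-type isotype libraries. The anti-CD40L libraries were below every library labelled KO and overlapped the wild-type isotype libraries. Ccl4 fell 1.54-fold against KO-labelled libraries (log2 -0.62, SE 0.17, edgeR quasi-likelihood, adjusted p = 0.0399), a call that passed in 8 of 16 alternatives. It was lost without anti-CD40L replicate 1 (0.138) or 2 (0.0798), KO replicate 1 (0.145), 2 (0.0570) or 3 (0.060), or wild-type isotype replicate 3 (0.0665), all edgeR adjusted p. It did not pass against wild-type isotype (log2 -0.27, SE 0.17, edgeR adjusted p = 0.328), nor did KO-labelled libraries against wild-type isotype (log2 0.35, SE 0.16, edgeR adjusted p = 0.866). In bulk RNA, fewer cells that make a transcript and less transcript per cell cannot be told apart.

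Cxcl10 encodes an interferon-induced ligand of CXCR3 and lies at chr5:92346638-92348889 on the minus strand. It had 2, 2 and 0 counts with anti-CD40L, 11, 3 and 2 counts in KO-labelled libraries, and 8, 3 and 11 counts in wild-type isotype libraries, too few to pass the filter of the main edgeR test. The ratio of its library-size-scaled summed counts was 0.211 for anti-CD40L over wild-type isotype, with an exact 95% interval from 0.0528 to 0.620. For KO-labelled libraries over wild-type isotype it was 0.573 (0.281 to 1.14), and for anti-CD40L over KO-labelled libraries 0.368 (0.0894 to 1.14). These intervals cover counting error only, not the spread between libraries. In the analysis without the filter on low counts, Cxcl10 passed in no comparison. The log2 fold change for anti-CD40L against wild-type isotype was -2.27 there (SE 1.15, edgeR adjusted p = 0.275). The edgeR adjusted p was 0.981 for KO-labelled libraries against wild-type isotype and 0.529 for anti-CD40L against KO-labelled libraries.

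Il16 encodes pro-interleukin-16, whose released C-terminal part is a ligand of CD4, and lies at chr7:83642819-83746028 on the minus strand. It had 112, 127 and 108 CPM with anti-CD40L, 183, 153 and 112 CPM in KO-labelled libraries, and 204, 169 and 176 CPM in wild-type isotype libraries. The anti-CD40L libraries were below all wild-type isotype libraries and overlapped the KO-labelled ones, of which replicate 3 was low. Il16 fell 1.58-fold against wild-type isotype (log2 -0.66, SE 0.15, edgeR quasi-likelihood, adjusted p = 0.0138). The call was lost without anti-CD40L replicate 1 (0.0551), anti-CD40L replicate 3 (0.0558, at a log2 fold change of -0.61) or wild-type isotype replicate 1 (0.0714), all edgeR adjusted p. Against KO-labelled libraries the log2 fold change was -0.36 (SE 0.15, edgeR adjusted p = 0.163). There it was -0.53 and passed without KO replicate 3 (edgeR adjusted p = 0.0122), was -0.19 without KO replicate 1 (0.510), and passed without the filter on low counts (0.0118). For KO-labelled libraries against wild-type isotype the log2 fold change was -0.30 (SE 0.14, edgeR adjusted p = 0.877).

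Tgfb1 encodes TGF-beta 1, a cytokine that restrains T cell responses, and lies at chr7:25687002-25705077 on the plus strand. It varied least, with 199, 218 and 197 CPM with anti-CD40L, 254, 225 and 219 CPM in KO-labelled libraries, and 230, 230 and 215 CPM in wild-type isotype libraries. It passed no test: the log2 fold change was -0.14 for anti-CD40L against wild-type isotype (95% interval -0.31 to 0.04), 0.05 for KO-labelled libraries against wild-type isotype (-0.13 to 0.22) and -0.18 for anti-CD40L against KO-labelled libraries (-0.36 to -0.01). The last interval excludes 0, but the edgeR adjusted p was 0.207.

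**Figure D2:**
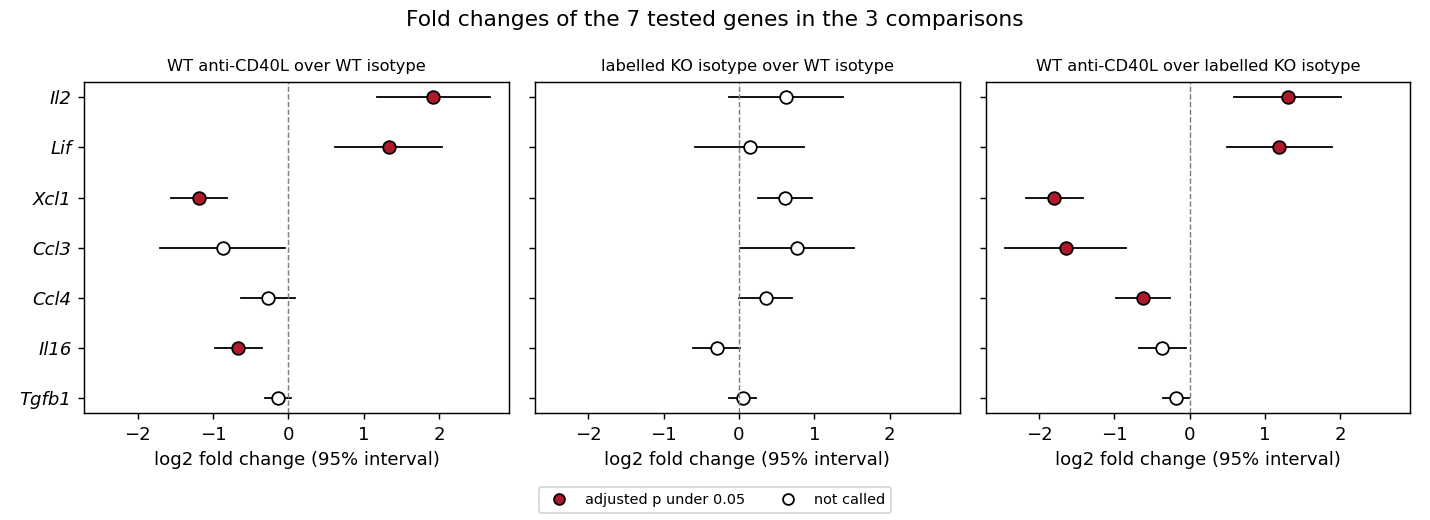
log2 fold change (x axis) with its 95% interval for the 7 tested genes (y axis) in the 3 comparisons (panels), filled where the edgeR adjusted p was under 0.05. Il2 and Lif are filled above 0 in both anti-CD40L panels, Xcl1 is filled below 0 in both, and no gene is filled in the panel of KO-labelled libraries against wild-type isotype.

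Counted together, 4 of the 7 tested genes passed for anti-CD40L against wild-type isotype, 2 higher and 2 lower, where 9.37% of all 11256 tested genes passed (2.91% higher and 6.46% lower). In that comparison 2 genes lay higher and 3 lower in every anti-CD40L library, against 15.4% and 17.2% of all tested genes, and 5 of 7 had an unadjusted p under 0.05, as did 26.4% of all genes. For anti-CD40L against KO-labelled libraries, 5 of 7 passed, 2 higher and 3 lower, with 6.83% of all genes (1.79% higher and 5.04% lower). There 2 genes lay higher and 4 lower in every anti-CD40L library, against 10.3% and 15.9% of all genes, and 7 of 7 had an unadjusted p under 0.05, as did 22.2% of all genes. For KO-labelled libraries against wild-type isotype, 0 of 7 passed in edgeR and 0 in DESeq2, and 0.0% of all genes passed in edgeR. The 3 KO-labelled libraries were all higher for 3 genes (Il2, Xcl1 and Ccl3) and all lower for 0, against 7.61% and 7.62% of all genes. At an unadjusted p under 0.05, 3 of 7 (Xcl1, Ccl3 and Ccl4, all higher) lay there, with 5.77% of all genes. The median log2 fold change of the 7 was -0.27, 0.35 and -0.36 in anti-CD40L against wild-type isotype, KO against wild-type isotype and anti-CD40L against KO, beside -0.01, 0.00 and -0.01 over all tested genes. The comparisons share libraries pairwise, so their values are not independent of each other. The 8 transcripts were also chosen with earlier results of these data known, so their shares are not read as particular to them. In the fit of anti-CD40L and KO-labelled libraries alone, without the wild-type isotype libraries, 1 of 7 passed, Xcl1, while Il2, Lif, Ccl3 and Ccl4 had edgeR adjusted p of 0.0602, 0.0626, 0.0504 and 0.0585.

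**Figure D3:**
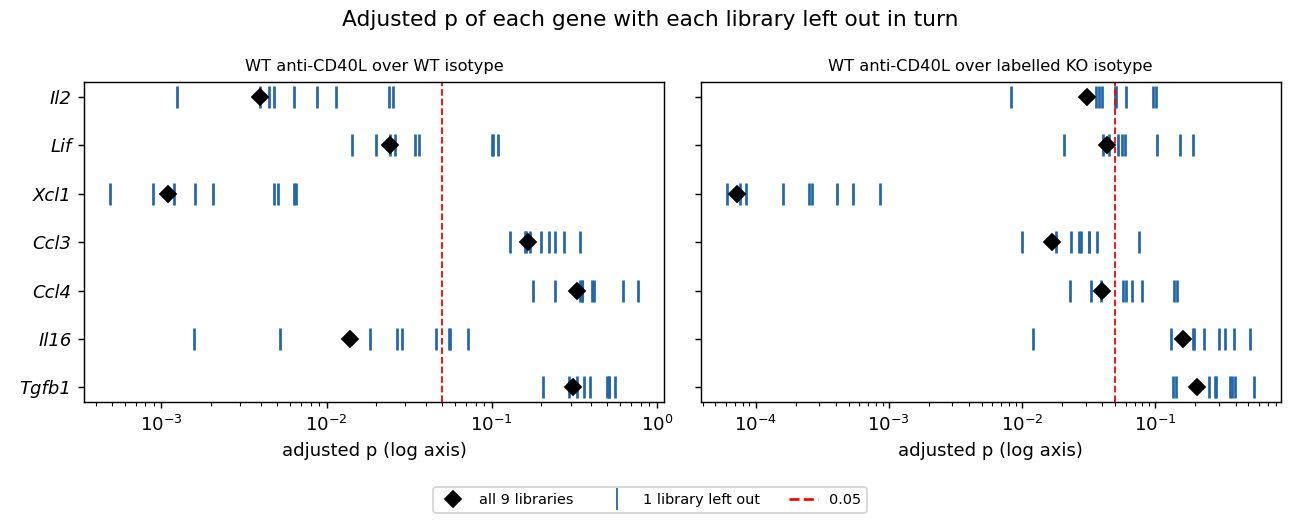
edgeR adjusted p (x axis, log scale) of each tested gene (y axis) with all 9 libraries (diamonds) and with each library left out in turn (ticks), for anti-CD40L against wild-type isotype (left) and against KO-labelled libraries (right), with a dashed line at 0.05. All ticks of Xcl1 lie left of the line in both panels, and those of Il2 do so in the left panel only.

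Ratios of counts within a library do not depend on its scaling. Il2 over Xcl1 was 0.198, 0.104 and 0.519 with anti-CD40L, 0.0208, 0.0325 and 0.0285 in KO-labelled libraries, and 0.0401, 0.0177 and 0.0259 in wild-type isotype libraries. The anti-CD40L ratios were all higher, 8.35-fold in geometric mean over wild-type isotype and 8.22-fold over KO-labelled libraries, while the isotype groups overlapped at a fold of 1.02. Without anti-CD40L replicate 3, which had the highest ratio, the folds were 5.44 and 5.36. Lif over Xcl1 was 5.91-fold and 8.25-fold higher with anti-CD40L in the same comparisons, with no overlap. Il2 and Lif were higher and Xcl1 lower in every anti-CD40L library, so the lack of overlap of these ratios was already fixed. It therefore adds no separate support to the tests of the single genes. Xcl1 over Ccl4 was 3.42, 4.06 and 1.99 with anti-CD40L, 7.01, 7.28 and 6.85 in KO-labelled libraries, and 5.89, 5.87 and 5.93 in wild-type isotype libraries. Xcl1 thus made up less, relative to Ccl4, with anti-CD40L and more in KO-labelled libraries than in wild-type isotype, with no overlap. Ccl3 over Ccl4 overlapped between anti-CD40L (0.331, 0.252 and 0.0429) and wild-type isotype libraries (0.372, 0.230 and 0.382), with an exact two-sided permutation p of 0.3. It was lower with anti-CD40L than in KO-labelled libraries (0.504, 0.379 and 0.382), without overlap. That fall was 2.73-fold in geometric mean, and 1.45-fold without anti-CD40L replicate 3. Each ratio whose groups did not overlap had an exact two-sided permutation p of 0.1, the smallest that 3 against 3 libraries allow.

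**Figure D4:**
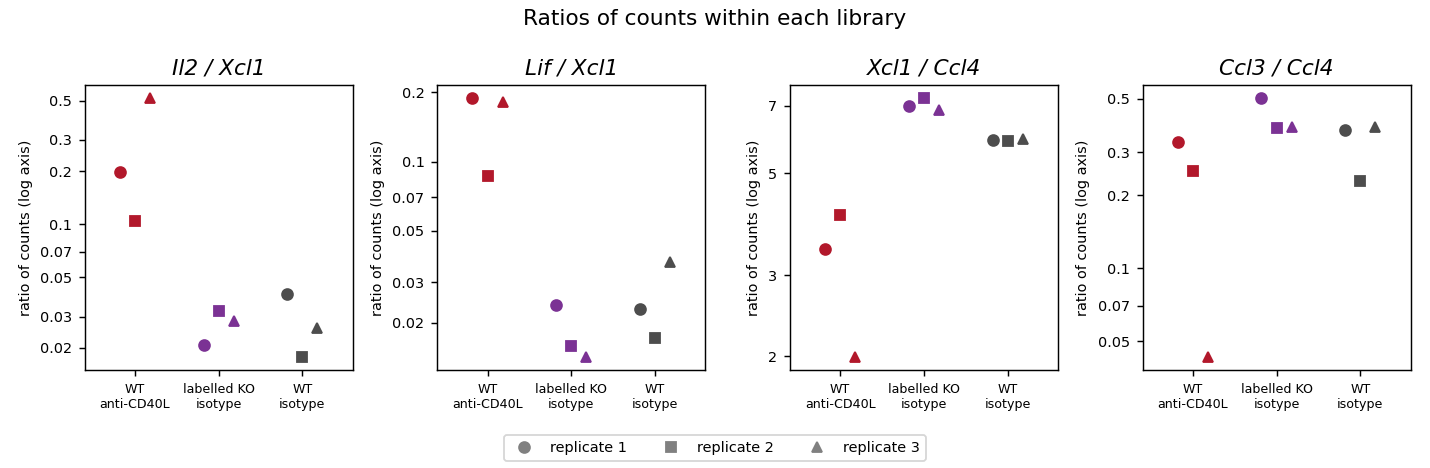
Ratio of the counts of 2 transcripts within each library (y axis, log scale, a different range per panel) in the 3 groups (x axis), with 1 point per library. Il2 over Xcl1 and Lif over Xcl1 lie higher in the anti-CD40L libraries than in any other library, and Xcl1 over Ccl4 orders the groups without overlap. Ccl3 over Ccl4 overlaps between anti-CD40L and wild-type isotype libraries.

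The counts for the lists below stand beside 2.91% of all tested genes called higher and 6.46% called lower against wild-type isotype, and 1.79% and 5.04% against KO-labelled libraries, and with few genes per list no count is read as particular to a list. Among 14 genes of the receptors of these proteins, 10 were tested, and for anti-CD40L against wild-type isotype 1 rose and 1 fell. Il2ra, the alpha chain of the IL-2 receptor, averaged 838 ± 28.7 CPM with anti-CD40L, 710 ± 46.8 CPM in KO-labelled libraries and 629 ± 44.4 CPM in wild-type isotype libraries (SD, n = 3 each). It rose against wild-type isotype (log2 0.41, SE 0.08, edgeR quasi-likelihood, adjusted p = 0.00702) and did not pass against KO-labelled libraries (log2 0.24, adjusted p = 0.10). Tgfbr2, the ligand-binding chain of the TGF-beta receptor, averaged 198 ± 20.1 CPM with anti-CD40L, 243 ± 20.0 CPM in KO-labelled libraries and 278 ± 4.83 CPM in wild-type isotype libraries (SD, n = 3 each). It fell against wild-type isotype (log2 -0.49, SE 0.09, edgeR adjusted p = 0.00442) and had a log2 value of -0.30 against KO-labelled libraries (edgeR adjusted p = 0.0660). Il2rb, Il2rg, Il6st, Cxcr3, Cd4, Cd9, Tgfbr1 and Tgfbr3 passed in no comparison, and Lifr, Xcr1 and Ccr1 were among those with too few counts to test.

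Downstream of IL-2, 13 of 14 genes of a STAT5 response list were tested, and 3 rose and 3 fell with anti-CD40L against wild-type isotype (median log2 fold change 0.05). Cish, a STAT5-induced inhibitor of cytokine signalling, rose (log2 0.81, SE 0.18, edgeR quasi-likelihood, adjusted p = 0.0154), as did Myc (0.40) and Ccnd2 (0.30), while Stat5b (-0.57), Jak1 (-0.38) and Bcl6 (-0.80) fell. Against KO-labelled libraries, Cish rose (0.71) and Stat5b (-0.53) and Bcl6 (-0.98) fell. Of 17 transcription regulators of Il2, all tested, 0 rose and 2 fell against wild-type isotype. These were Tob1 (log2 -0.80, SE 0.13, edgeR adjusted p = 0.00189), an antiproliferative repressor, and Zeb1 (-0.52), a repressor of Il2 transcription. Both also fell against KO-labelled libraries (-0.83 and -0.51), with Prdm1 (-1.53), the gene of the repressor Blimp-1, whose call passed in 6 of 16 alternatives.

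Of 14 tested genes of TGF-beta activation and signalling, 0 rose and 3 fell with anti-CD40L against wild-type isotype: the inhibitory Smad7 (log2 -1.06, SE 0.13, edgeR quasi-likelihood, adjusted p = 0.00034), the co-repressor Ski (-0.49) and the signal transducer Smad3 (-0.43). Against KO-labelled libraries Smad7 (-0.71) and Ski (-0.36) fell, while Skil rose (0.44, edgeR adjusted p = 0.0143). Of the 13 genes of the interferon axis that drives Cxcl10, 0 rose and 7 fell with anti-CD40L against wild-type isotype, with a median log2 fold change of -1.01. Ifngr1, a chain of the interferon-gamma receptor, averaged 30.3 ± 5.90 CPM with anti-CD40L, 133 ± 30.0 CPM in KO-labelled libraries and 119 ± 21.1 CPM in wild-type isotype libraries (SD, n = 3 each). It fell against both (log2 -1.99 and -2.14, edgeR adjusted p = 6.97e-05 and 3.6e-05). Irf7, an interferon regulatory factor, fell by 2.82 on the log2 scale against wild-type isotype (edgeR adjusted p = 0.0122), on 13, 9 and 0 counts with anti-CD40L. Of 10 genes of factors that control the decay of cytokine mRNA, Hnrnpd rose (0.38) and Zfp36 fell (-0.45, edgeR adjusted p = 0.0455) against wild-type isotype. Against KO-labelled libraries only Zc3h12d of this list passed, and it rose (log2 0.55, edgeR adjusted p = 0.00118, in all 16 alternatives). Whether the decay of these mRNAs changed was not tested. Of the named calls against wild-type isotype, those of Il2ra, Tgfbr2, Stat5b, Tob1, Smad7, Ski and Ifngr1 passed in all 16 alternatives, and the other list genes named passed in 9 to 15 of 16. Among 5 tested other T cell cytokines and 3 tested other chemokines, 0 passed in edgeR in any comparison. In KO-labelled libraries against wild-type isotype 0 genes of any of these lists passed in edgeR.

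Several of these proteins are also made by other leukocytes, so markers of those cells were summed per library. Natural killer markers summed to 4.97 to 15.3 CPM with anti-CD40L, 8.71 to 13.1 CPM in KO-labelled libraries and 8.65 to 27.0 CPM in wild-type isotype libraries. Most of that sum was Eomes, which averaged 9.13, 10.2 and 14.6 CPM in the same order of groups. CD8 markers summed to 6.27 to 10.5, 7.61 to 11.9 and 7.32 to 11.1 CPM in the same order. Most of that was Cd8b1 (mean 7.38, 7.89 and 8.78 CPM), with Cd8a at 0.41, 1.17 and 0.26 CPM. Resting mainly on single genes, these sums do not measure the number of natural killer or CD8 T cells. B cell markers, 9 of 9 with a count, summed to 1.72 to 14.8, 7.61 to 19.4 and 13.2 to 39.5 CPM, with Fcer2a lower with anti-CD40L against wild-type isotype. Monocyte, macrophage and neutrophil markers summed to 2.69 to 6.11, 5.12 to 17.7 and 7.69 to 8.36 CPM, with Ly6g at 0 in every library, and against wild-type isotype Fcgr3 and Itgam fell with anti-CD40L, in 12 and 9 of the 15 alternatives that tested them. Against KO-labelled libraries Itgam fell, in 5 of 16 alternatives, and Fcgr3 did not pass. Cd68, the only other tested marker of this list, passed in no comparison. It averaged 3.94 CPM with anti-CD40L, 3.36 CPM in KO-labelled libraries and 4.09 CPM in wild-type isotype libraries. With anti-CD40L it held 91 of the 104 summed counts of the list, and Fcgr3 held 3. Stromal and endothelial markers, 6 of 6 with a count, summed to 28.1 to 38.7 CPM with anti-CD40L, 61.5 to 94.4 CPM in KO-labelled libraries and 74.3 to 109 CPM in wild-type isotype libraries, so anti-CD40L libraries lay below all others. Most of that sum was Pecam1, an adhesion molecule that naive T cells also carry, which averaged 31.6 ± 5.29, 77.0 ± 17.0 and 84.9 ± 19.4 CPM (SD, n = 3 each) and fell against both isotype groups in all 16 alternatives. Dendritic markers stayed at or under 3.05 CPM, with Clec9a at 0 in every library, while CD4 T cell markers summed to 4230 to 4358, 4077 to 4399 and 4197 to 4562 CPM. The part of these other cells in the values of the chemokines was not tested.

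AUUUA pentamers in 3′ untranslated regions are bound by decay factors of cytokine mRNA. Read as ATTTA in GENCODE vM21, they numbered 7 in Il2, 7 in Lif and 5 in Ccl3, against 2 in Ccl4 and Cxcl10, 1 in Xcl1 and Tgfb1 and 0 in Il16. At least 1 was held by 64.7% of 21020 genes, and 7 or more by 13.1%. The regions differ in length, with 3180 bases in Lif and 141 in Xcl1.

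Genes on the opposite strand overlap some of the 8, and the use of strand in counting was not given in the sources used here. Adad1 overlaps 1408 bases of the Il2 span, and Gm20743 overlaps all of the Xcl1 span. Stard5 overlaps 10303 bases of the Il16 span and 2310044K18Rik overlaps 1389, and Art3 overlaps 2252 bases at Cxcl10. These are overlaps of whole gene spans, introns included, and how much of each is exon in both genes was not measured. Reads in exon bases that a pair shares cannot be told apart without strand. In the order anti-CD40L, KO-labelled and wild-type isotype, Adad1 summed to 4, 10 and 0 counts beside 449, 302 and 153 for Il2. Gm20743 summed to 1, 12 and 6 counts and had at most 7 in a library, where Xcl1 had at least 324. Art3, with 15, 21 and 11 counts, was as low as Cxcl10, with 4, 16 and 22. Counts of Stard5 and 2310044K18Rik are not given here, and the part of their reads in the values of Il16 was not tested.

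The genes whose pattern over the 9 libraries was most like each transcript were found among genes that averaged at least 5 CPM, as the smallest mean absolute difference of log2 CPM after each gene was centred. For Xcl1 these were Fosl2 (0.159), a subunit of AP-1, Cracdl (0.164) and Wnt10b (0.175). For Il2 they were Mtfp1 (0.282), Mms22l (0.303) and Lad1 (0.310), and for Lif Bhlhe40 (0.285), Gtse1 (0.307) and Dusp5 (0.312). The nearest to Ccl4 were Otud1 (0.0989), Maff (0.101) and Marcksl1 (0.110), and those to Ccl3 included Plaur (0.238) and Pde1b (0.282). These differences also scale with how much each transcript itself varied, so they do not rank the 7 transcripts by how well they were matched. Il16 was nearest to Psap (0.0678), Klhl6 (0.0761) and Tap1 (0.0834), and Tgfb1 to Flii (0.0282), Axin1 (0.0378) and Pank2 (0.0385).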

How the data were processed

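The authors deposited expected counts without normalization as 1 table of 42361 RefSeq transcripts, in which all values are multiples of 0.5. The submitters' processing notes name CASAVA 1.8.2, HISAT2 2.1.0 and mm10. The counter, its use of strand and its handling of multiple alignments were not given in the sources used here, and overlapping or duplicated genes are therefore uncertain. RefSeq (GRCm38.p6) named 42203 transcripts and GENCODE vM21 named 65, while 93 kept their identifier. The transcript of highest total was kept per gene and its counts rounded, with fractions rounded up. The fit assumed whole counts, and rounded counts took their place.

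edgeR 4.0.16 in R 4.3.3 was run with filterByExpr by group (11256 genes kept), TMM scaling and robust quasi-likelihood F tests on all 9 libraries with 1 term per group. p-values were adjusted by Benjamini-Hochberg over all tested genes in each comparison at 0.05. CPM uses TMM-scaled library sizes, and intervals of fold changes are 95%. The test was tested on simulated data first. The 16 alternatives include no filter, other scaling, a replicate term, fits of 2 groups, DESeq2 1.42.0, limma-voom (limma 3.58.1) and leaving out each library. Leaving out each library for the count ratios was chosen after seeing the data. The members and gene lists were chosen with earlier results of these data known. Named genes were the 8 transcripts, every tested receptor, list genes that passed and the 3 genes most like each transcript in pattern. Some genes that this rule names are left out of the text.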

Additional observations from a re-analysis of the deposited data

How the results depend on the processing

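The 1055 genes called for anti-CD40L against wild-type isotype became 1698 without the filter and 1625 with DESeq2, and 486 to 1342 with 1 library left out, where 2 to 4 of the 7 tested transcripts passed. Without the filter Ccl3 passed as well. For KO-labelled libraries against wild-type isotype, the 0 genes called by edgeR became 102 without the filter, 3 in the fit of those groups alone, 38 with limma-voom and quality weights, 39 with DESeq2 and 0 to 2 with 1 library left out, and 1 of the 7 (Xcl1) passed without the filter. The 769 genes for anti-CD40L against KO-labelled libraries became 1305, 481, 1458 and 1219 under the same 4 alternatives, and 346 to 1022 with 1 library left out. There 1 of the 7 passed in the fit of those groups alone, and 2 to 4 with 1 library left out.

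Replicate numbers showed no clear pairing of the libraries: deviations of same-numbered libraries from their group means correlated between -0.149 and 0.18, and 8 of 18 best matches had the same number. With 3 libraries per group and anti-CD40L replicate 3 outlying, this check cannot exclude a shared mouse or culture day. With the replicate number as a block, 954, 0 and 664 genes passed, and 3 of the 7 for anti-CD40L against KO-labelled libraries. No called fold change of the 7 changed sign under these alternatives. Depth limits Cxcl10, with at most 11 counts per library, and Ccl3 in anti-CD40L replicate 3.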

Other observations

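Some secreted proteins of the cytokine and chemokine lists lay under the expression filter and are given as counts, chosen after their values were seen. Ccl22, a chemokine that attracts cells with CCR4, had 0, 2 and 0 counts with anti-CD40L, 7, 0 and 1 in KO-labelled libraries, and 16, 33 and 5 in wild-type isotype libraries. Ebi3, a subunit of interleukin-27 and interleukin-35, had 0 counts in every anti-CD40L library, 2, 3 and 2 in KO-labelled libraries, and 15, 13 and 7 in wild-type isotype libraries. Both were lowest with anti-CD40L and highest in wild-type isotype libraries by summed counts, and no test was made of either. B cell markers, given above, also summed highest in wild-type isotype libraries, and their part in these counts was not tested.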
